A study of Mus musculus with 21 samples.

Results

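The genes of the constitutive 26S proteasome and of its activators were followed in adult mouse microglia, the resident macrophages of the brain, after systemic lipopolysaccharide (LPS, a bacterial cell wall component). Members were all rows of the count table whose identifier maps to a protein-coding symbol beginning with Psma, Psmb, Psmc, Psmd, Psme or Psmf and whose estimated counts sum to at least 100 over all libraries, with the immunoproteasome subunits Psmb8, Psmb9 and Psmb10 left out. This gave 42 genes of the 55487 in the table. Psmb11, the thymus-restricted beta subunit, was the only symbol just outside, with a summed count of 8, and Psmc3ip (441) and Psma8 (833) were the lowest inside. Of the 42, 40 are proteasome subunits, dedicated 19S assembly chaperones, activators or the inhibitor. Psmc3ip, a meiotic recombination cofactor, and Psme2b, a close copy of Psme2, came in by symbol alone and are kept apart in the counts by role.

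Microglia were sorted from the striatum of male mice of 8 to 10 weeks as living cells that bound antibodies to CD11b and P2RY12 and carried little CD45. Their mothers had either served as controls or undergone maternal immune activation (MIA) in pregnancy, and each mouse received saline or LPS into the peritoneum, at 4500 endotoxin units per gram of body weight, and was sampled 18 hours later. The 4 groups are control saline (6 libraries), control LPS (5), MIA saline (5, after leaving out 1 library that the submitters titled excluded) and MIA LPS (3 libraries of batch 1 and the only library of batch 2). The sources used here do not give the agent the dams received, the mouse strain or the litters, and the p-values measure the spread between these libraries. The batch term of the fit takes up the batch 2 library, and all comparisons therefore rest on 19 libraries.

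The 26S proteasome degrades proteins tagged with ubiquitin. Its 20S core is a barrel of alpha rings, which gate the entry pore, around beta rings, which carry the proteolytic sites. The 19S cap consists of a base, where an ATPase ring unfolds the substrate, and a lid, which removes the ubiquitin chain, while PA28 and PA200 are alternative caps that need no ATP. In macrophages, interferons exchange the catalytic beta subunits for immunoproteasome versions and raise the PA28 alpha and beta chains, which favours the making of peptides for antigen presentation, and the transcription factor Nfe2l1 raises most subunit genes together when proteasome activity falls short.

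Total estimated counts of the 19 libraries ranged from 9.85 to 19.0 M (counts in units of 1000000), and a ribosomal RNA gene took 43.0% to 53.8% of them. Levels below are counts per 1000000 counts (CPM) after TMM scaling, a correction for library composition. All 42 members passed the filter on low counts, and 14741 genes were tested. The 8 microglia markers were detected in every group, with a summed level of 11860 to 15680 CPM in control saline and 4725 to 6048 CPM in control LPS libraries (11180 to 15860 and 3749 to 5752 in the MIA groups), and 7 of the 8 fell after LPS, P2ry12, whose protein the sort selected for, to 0.0953 of its saline level in control offspring. Summed monocyte markers (7 genes) ran from 4.37 to 6.71 CPM in control saline, 54.6 to 114 in control LPS, 3.64 to 7.88 in MIA saline and 49.6 to 84.0 in MIA LPS. Of those 7 genes 6 rose after LPS in both maternal groups and Ccr2, the defining receptor of inflammatory monocytes, fell, while Ly6c2 and Chil3 were at 0 in MIA saline. Neutrophil markers moved too: of 7 tested, 4 rose and 1 fell in control offspring and 6 rose and 1 fell in MIA offspring, with S100a8, S100a9, Retnlg and Mmp8 higher in both and Csf3r lower in both. S100a9, Ly6g, Retnlg, Mmp8, Ltf and Camp were at 0 in MIA saline, and the summed level, 164 to 208 CPM in control saline and 102 to 166 in control LPS libraries (171 to 214 and 81.0 to 162 in the MIA groups), overlapped between saline and LPS libraries only at its ends in control offspring and was lower after LPS in MIA offspring. Of the lymphocyte markers, Cd3e and Nkg7 were at 0 in every group. In bulk RNA a change in the cells that passed the sort and a change of RNA per cell cannot be told apart, and the part of the other cell types in the proteasome results was not tested.

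Per kilobase of transcript, the 20S genes had the highest median levels by role in control saline microglia. The length was that of the longest annotated principal transcript, or else of the longest coding one. Which form was expressed was not measured, and this limits how far genes can be set against each other. Psma2 and Psma3, for example, were given 2911 and 2846 bases. The median level was 29.7 CPM per kilobase for the 8 alpha genes and 26.5 for the 7 beta genes, against 14.4 for the 6 ATPases, 10.6 for the 3 other base genes, 11.8 for the 8 lid genes and 4.17 for the 3 assembly chaperones. Psma1 stood first with 48.8 ± 10.4 CPM per kilobase (SD, n = 6) and Psmb6, the caspase-like catalytic subunit, second with 46.1 ± 6.57, a gap smaller than either SD. The PA28 genes Psme2 (37.0 ± 5.65) and Psme1 (36.9 ± 7.92) followed Psma6 and lay at the level of the core subunits already without LPS. The other PA28 gene, Psme3, had 5.36 ± 0.672 and Psme4, which encodes PA200, 6.04 ± 1.25 CPM per kilobase. Lowest in rank among the proteasome genes proper were Psmf1, whose product PI31 binds the core (2.94 ± 0.319), and Psma8, the germ-cell alpha subunit (1.79 ± 0.631). After LPS in control offspring Psme2 (108) and Psme1 (101) had the highest levels of the 42, ahead of Psma6 (85.4).

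LPS raised most proteasome genes in microglia of control offspring. Of the 42 members 36 rose and 0 fell, where 23.3% of all genes tested rose and 21.3% fell, 44.6% together (edgeR quasi-likelihood test, Benjamini-Hochberg adjusted p under 0.05, which is what a call means throughout). The median member rose by 0.73 on the log2 scale, 1.66-fold, with the middle 50% of members from 0.43 to 0.93, while the median of all genes was 0.00. In 30 members every LPS library lay above every saline library, a separation seen in 15.1% of all genes. Only Psmd5 and Psme4 had fitted values below 0, both within 1 SE of 0, so no member fell at an unadjusted p under 0.05 either, and DESeq2 and limma-voom called 0 lower. Changes were moderate in size: 7 members were called at 2-fold or more (10.6% of all genes were).

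The rise recurred in MIA offspring, whose libraries are separate from those of the control comparison. There 34 members rose and 0 fell, beside 20.8% and 18.3% of all genes (39.1% together), with a median log2 fold change of 0.87 (1.83-fold, all genes 0.02), and in 29 members the groups did not overlap (18.5% of all genes). Psmd5 had the only value below 0, -0.18 ± 0.17 (SE), and DESeq2 and limma-voom again called 0 lower. At 2-fold or more, 17 members were called (10.8% of all genes). The calls coincided in 33 members (18.1% of all genes rose in both). Psma1, Psma3 and Psmf1 passed in control offspring and missed the threshold in MIA offspring, Psmc3 did the reverse, and for these 4 genes the difference of the responses had an adjusted p of 1.00 (edgeR). Across the 42 members the fold changes of the 2 maternal groups had Pearson's r = 0.87 and Spearman's rho = 0.84, given as a description since members share libraries and a scaling.

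**Figure D1:**
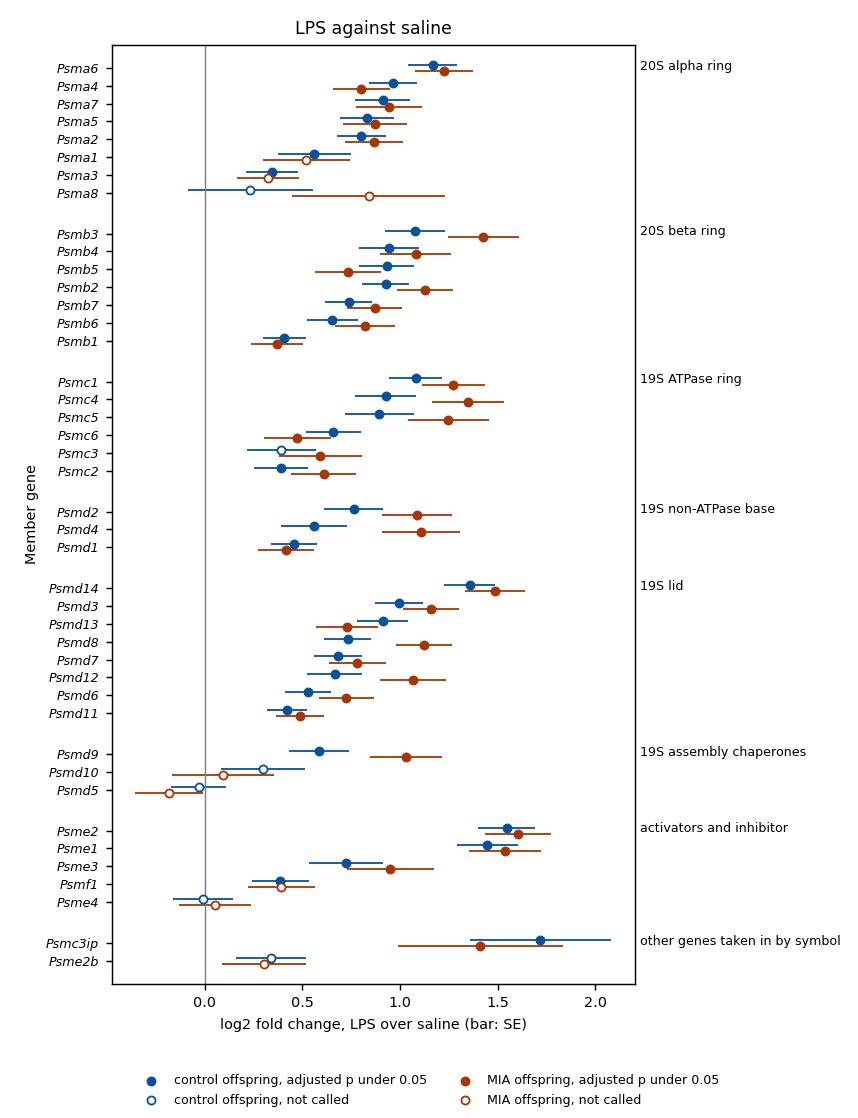
Fitted log2 fold change of each member for LPS over saline (x axis; bars are SE), grouped by role, in control offspring (blue; 6 saline and 5 LPS libraries) and MIA offspring (brown; 5 and 3). Filled points passed the test at an adjusted p under 0.05; 36 control and 34 MIA points are filled, all to the right of 0, and Psme2, Psme1 and Psmd14 lie farthest right among the proteasome genes proper.

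The summed level of the 42 genes separated the treatments library by library. It was 1068 to 1289 CPM in control saline, 1764 to 2190 in control LPS, 991 to 1362 in MIA saline and 1952 to 2304 in MIA LPS, so that no LPS library came down to the level of any saline library. Each LPS library had between 38 and 42 of the 42 members above their control saline mean. Among saline libraries that number ran from 5 (MIA saline replicate 3) to 34 (MIA saline replicate 2), so members also went up and down together between saline mice. The mitochondrial share of counts was 2.57% to 4.63% in control saline and 3.62% to 6.11% in control LPS, and 4.00% to 5.56% and 4.17% to 7.30% in the MIA groups; its part was not tested. Without MIA LPS replicate 2, which had the highest of these shares, the MIA comparison still called 34 members higher.

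**Figure D2:**
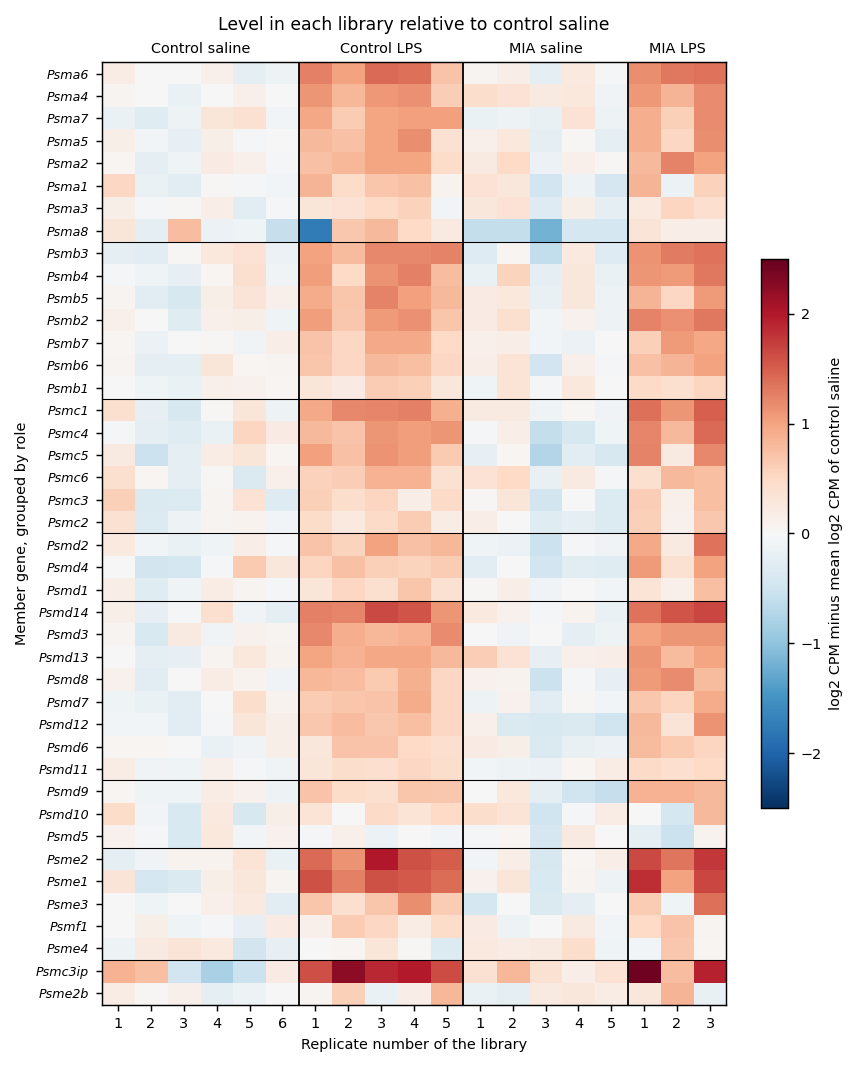
Level of each member (rows, by role) in each of the 19 libraries (columns, with replicate number), as log2 CPM minus the gene's mean over control saline. LPS columns are red through nearly all rows, while Psmd5, Psmd10, Psme4 and Psme2b stay pale or mixed.

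In the alpha rings, 7 of 8 genes rose in control offspring and 5 of 8 in MIA offspring, with medians of 0.82 and 0.85. Psma6 had the largest response. Its level in control saline ran from 33.6 through a median of 39.9 to 44.8 CPM, and the control LPS libraries had 94.9, 78.9, 105, 102 and 64.4 CPM. MIA saline libraries had 41.1, 44.3, 33.6, 46.7 and 38.6 CPM and MIA LPS libraries 87.7, 97.9 and 101. Both pairs of groups were fully apart, by 1.17 ± 0.12 and 1.23 ± 0.15 on the log2 scale (edgeR, adjusted p = 2.29e-08 and 2.44e-07). Psma8, which replaces another alpha subunit in spermatogenic cells, was near the floor of the data. It had 1.94, 2.64 and 4.93 CPM as lowest, median and highest in control saline and 0.867, 4.63, 5.09, 4.09 and 3.37 CPM in control LPS. These groups overlapped across their whole range, with a log2 fold change of 0.23 ± 0.32 (edgeR, adjusted p = 0.587), and in MIA offspring the value was 0.84 ± 0.39 (adjusted p = 0.0935; 0.0310 without control LPS replicate 1).

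All 7 beta ring genes rose in both maternal groups, with medians of 0.93 and 0.87. The catalytic subunit Psmb5, which carries the chymotrypsin-like site, had 17.9, 25.2 and 29.5 CPM as lowest, median and highest in control saline and 44.9, 38.1, 55.5, 48.0 and 41.4 CPM in control LPS. In MIA offspring it had 27.0, 28.0, 20.7, 28.6 and 21.4 CPM after saline and 42.4, 33.9 and 49.0 after LPS. LPS and saline libraries did not overlap in either case, at 0.93 ± 0.14 and 0.73 ± 0.17 (edgeR, adjusted p = 6.09e-06 and 0.00110).

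Psmb6 had 30.9, 37.8 and 44.8 CPM as lowest, median and highest in control saline and 59.3, 52.4, 63.6, 61.9 and 52.6 CPM in control LPS, a log2 difference of 0.66 ± 0.13 (edgeR, adjusted p = 0.000163). In MIA offspring its saline libraries, 26.1 to 46.2 CPM, again lay below the LPS libraries at 61.0, 65.4 and 72.9, with 0.82 ± 0.15 (edgeR, adjusted p = 0.000109). Psmb7, which carries the trypsin-like site, rose by 0.74 ± 0.12 and 0.87 ± 0.14, from 26.4 ± 1.99 (SD, n = 6) to 44.0 ± 6.77 CPM (n = 5) and from 26.6 ± 2.47 (n = 5) to 48.6 ± 7.92 (n = 3). So the catalytic genes all rose and none of them led the ring. That place was held by the structural subunit Psmb3, with 1.08 ± 0.15 and 1.43 ± 0.18, and the smallest rise by Psmb1, another non-catalytic subunit, with 0.41 ± 0.11 and 0.37 ± 0.13 (edgeR, adjusted p = 0.00391 and 0.0295). The MIA value of Psmb1 missed the threshold under other scalings of the libraries (0.28 to 0.30) and without MIA LPS replicate 1 or 3 or MIA saline replicate 1, 3 or 5.

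The 19S cap moved with the core. Of its 17 subunit genes 16 rose in control offspring (median 0.68) and 17 in MIA offspring (median 1.07). In the ATPase ring, which threads the unfolded substrate into the core, 5 of 6 and 6 of 6 rose. Psmc1 had 14.7, 18.7 and 25.6 CPM as lowest, median and highest in control saline and 37.6, 44.5, 45.0, 46.6 and 35.9 CPM in control LPS, where no library overlapped (1.08 ± 0.14, edgeR, adjusted p = 3.54e-07). In MIA offspring the change of Psmc1 was 1.27 ± 0.16, from 20.2 ± 2.26 (SD, n = 5) to 48.7 ± 6.55 CPM (n = 3). Psmc2 was lowest in the ring in control offspring, with 0.39 ± 0.14, the groups overlapping (edgeR, adjusted p = 0.0234; DESeq2, adjusted p = 0.0544; over 0.05 without control saline replicate 2 or control LPS replicate 3 or 4). The exception was Psmc3, at 0.39 ± 0.18 in control (adjusted p = 0.0721) and 0.59 ± 0.21 in MIA offspring (adjusted p = 0.0279, edgeR), a gene whose exons overlap Slc39a13 on the other strand.

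Each of the 3 other base genes rose in both groups. Psmd2, a scaffold that docks ubiquitin carriers, rose by 0.76 ± 0.15 and 1.09 ± 0.18. The other large scaffold gene, Psmd1, had the smallest rise of the base, 0.46 ± 0.12 and 0.42 ± 0.14 (edgeR, adjusted p = 0.00269 and 0.0211); in MIA offspring it rested on MIA LPS replicate 3, at 71.0 CPM against 53.3 and 46.0, without which it was 0.23 (adjusted p = 0.272). The MIA call of Psmd1 also ended with upper quartile scaling (0.32, adjusted p = 0.0616) and with no filter (0.41, adjusted p = 0.0512), and the control call with no batch term (0.46, adjusted p = 0.0540). With no batch term, which lets the batch 2 library into the MIA LPS group, the MIA rises were 0.79 for Psmd1 and 1.66 for Psmd2. Psmd4, a ubiquitin receptor of the cap, overlapped between control saline (13.0 to 28.1 CPM) and control LPS libraries (25.8 to 29.8 CPM) and was fully apart in MIA offspring (12.8 to 17.9 against 23.4 to 37.5 CPM). Its rises were 0.56 ± 0.17 and 1.11 ± 0.20 (edgeR, adjusted p = 0.00798 and 7.36e-05).

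All 8 lid genes rose in both groups, with medians of 0.71 and 0.92. Psmd14 encodes the metalloprotease that cuts the ubiquitin chain off the substrate, and it was the most responsive subunit of the whole 26S particle. Its level was 17.8, 20.1 and 27.9 CPM as lowest, median and highest in control saline and 50.2, 49.1, 65.4, 62.3 and 45.1 CPM in control LPS. MIA saline libraries had 24.7, 22.7, 20.6, 22.2 and 18.7 CPM and MIA LPS libraries 54.0, 62.1 and 66.8. The lowest LPS library was above the highest saline library by a wide margin, and the rises were 1.36 ± 0.13 and 1.49 ± 0.15, or 2.56-fold and 2.80-fold (edgeR, adjusted p = 3.46e-09 and 1.97e-08). The lid scaffold gene Psmd3 followed at 1.00 ± 0.12 and 1.16 ± 0.14, from 12.5 ± 1.75 (SD, n = 6) to 24.97 ± 3.18 CPM (n = 5) in control offspring; its MIA rise was 2.16 with no batch term. At the other end Psmd11, a lid subunit whose amount limits 26S assembly in some cells, rose by 0.42 ± 0.10 and 0.49 ± 0.12, and its groups still did not overlap.

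The chaperones that help assemble the base and then leave it did not move as a block. Psmd9 rose by 0.59 ± 0.15 and 1.03 ± 0.18 (edgeR, adjusted p = 0.00279 and 6.11e-05), from 7.72 ± 0.710 (SD, n = 6) to 11.6 ± 1.17 CPM (n = 5) and from 6.81 ± 1.70 (n = 5) to 13.9 ± 0.315 (n = 3). Psmd10, also known as gankyrin, had 0.30 ± 0.22 and 0.09 ± 0.26 and was not called. Psmd5 had 14.0, 18.6 and 21.9 CPM as lowest, median and highest in control saline and 17.9, 19.96, 16.4, 18.2 and 17.2 CPM in control LPS. The LPS libraries sat inside the saline range, with a log2 value of -0.03 ± 0.14 (edgeR, adjusted p = 0.887), and MIA offspring gave -0.18 ± 0.17 (adjusted p = 0.439).

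Among the alternative caps the response split by type. The PA28 alpha and beta genes, whose products form the interferon-inducible cap of the core, had the largest rises of all subunit and activator genes. Psme1 had 29.5, 43.2 and 50.03 CPM as lowest, median and highest in control saline and 121, 96.4, 121, 116 and 106 CPM in control LPS. In MIA offspring Psme1 had 43.0, 49.8, 31.0, 42.1 and 37.0 CPM after saline and 145, 80.7 and 128 after LPS. Every LPS library was above every saline library, by 1.45 ± 0.16 and 1.54 ± 0.18 (2.73-fold and 2.90-fold; edgeR, adjusted p = 2.91e-08 and 2.37e-07).

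Psme2 had 29.6, 35.3 and 44.4 CPM as lowest, median and highest in control saline and 94.5, 77.1, 141, 107 and 100.2 CPM in control LPS. After saline the MIA libraries had 33.4, 39.3, 26.8, 36.5 and 39.4 CPM, and after LPS 111, 89.0 and 120. Again no library overlapped, and the rises were 1.55 ± 0.14 and 1.60 ± 0.17 (2.92-fold and 3.04-fold; edgeR, adjusted p = 2.05e-09 and 2.86e-08). The 2 partners, which assemble into 1 ring, thus rose by nearly the same amount in each maternal group. Their genes are neighbours on chromosome 14, Psme1 at chr14:55578123-55581529 on the plus strand and Psme2 at chr14:55587441-55591113 on the minus strand (GRCm38, GENCODE M21).

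The third PA28 gene, Psme3, encodes a nuclear cap that is not interferon-inducible in the textbook account. It had 11.8, 14.1 and 16.9 CPM as lowest, median and highest in control saline and 23.0, 18.6, 22.9, 31.6 and 22.0 CPM in control LPS, with no overlap and a rise of 0.72 ± 0.19 (edgeR, adjusted p = 0.00257). In MIA offspring the LPS libraries were far apart, at 21.9, 13.1 and 36.9 CPM against 10.4 to 14.3 after saline. The fitted rise of 0.95 ± 0.22 (edgeR, adjusted p = 0.00131) fell to 0.49 (adjusted p = 0.0824) without MIA LPS replicate 3.

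Psme4 encodes PA200, a large nuclear cap linked to the degradation of acetylated histones. Its level was 28.0, 40.1 and 48.0 CPM as lowest, median and highest in control saline and 38.4, 39.7, 47.4, 39.2 and 30.4 CPM in control LPS, and 35.6 to 51.8 CPM in MIA saline against 36.7, 61.1 and 40.0 in MIA LPS. The groups overlapped in both cases, 1 MIA LPS library lying above all MIA saline libraries, with log2 values of -0.01 ± 0.15 and 0.05 ± 0.18 (edgeR, adjusted p = 0.979 and 0.850); the sign of both values changed between settings. The inhibitor gene Psmf1 went from 11.2 ± 1.21 (SD, n = 6) to 14.7 ± 2.17 CPM (n = 5) in control offspring and from 11.5 ± 1.29 (n = 5) to 15.2 ± 3.30 (n = 3) in MIA offspring. The groups overlapped, and values of 0.39 ± 0.15 and 0.39 ± 0.17 fell on either side of the threshold (edgeR, adjusted p = 0.0313 and 0.0746). The control call was lost in 6 of 10 other settings, among them DESeq2 (0.31, adjusted p = 0.0828) and no batch term (0.39, adjusted p = 0.159), and without control LPS replicate 2, 3 or 5 or control saline replicate 3, 4 or 5. The MIA value passed without MIA LPS replicate 3 (0.56, adjusted p = 0.0227) and with no batch term (0.80, adjusted p = 0.00785).

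**Figure D3:**
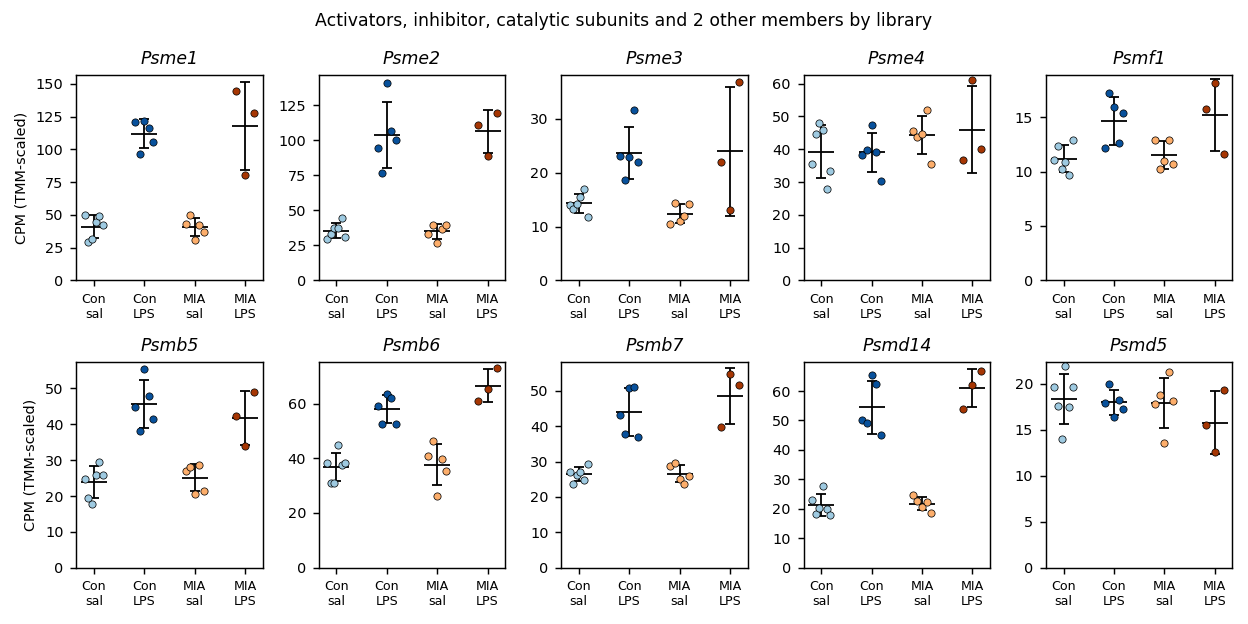
TMM-scaled CPM (y axes from 0) in each library for the 4 activator genes, the inhibitor gene Psmf1, the catalytic subunits Psmb5, Psmb6 and Psmb7, and the members Psmd14 and Psmd5; points are libraries, long bars means and short bars SD. Psme1, Psme2 and Psmd14 show a gap between saline and LPS in both maternal groups, whereas Psme4 and Psmd5 have LPS points within the saline range or close to it.

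Both members that came in by symbol alone were weakly expressed or uncertain. Psmc3ip, at 0.748 ± 0.368 CPM (SD, n = 6) in control saline and 2.50 ± 0.467 (n = 5) in control LPS, rose by 1.72 ± 0.36 (edgeR, adjusted p = 0.000344), and by 1.41 ± 0.42 in MIA offspring, where the call was lost without MIA LPS replicate 1 (1.03, adjusted p = 0.0990). Its exons overlap Mlx on the other strand, whose summed count was 4086 against 441 for Psmc3ip, and the sources used here do not say whether reads were counted by strand. Psme2b, on chromosome 11, shares exon bases with 9930111J21Rik1 on the same strand, so its reads cannot be assigned to it with certainty. It had 0.34 ± 0.18 and 0.30 ± 0.21 and was not called (edgeR, adjusted p = 0.130 and 0.285). Psmb7, Psmd1, Psmd13 and Psme1 also share exon bases with genes on the other strand (Nek6, Htr2b, Sirt3 and Emc9). Nek6 had a summed count of 26547 against 9997 for Psmb7. Whether its reads entered Psmb7, or the Psmb10 to Psmb7 ratio below, was not tested. On their own strand Psmd1 shares exon bases with Gm21972 and Psmb5 with Mir686. The 4 annotated proteasome pseudogenes matched by symbol had summed counts of 0 to 14.9.

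The promoters of 4 members are shown. Psme1 and Psme2 had the largest rises among the proteasome genes proper, Psmb5 is a catalytic subunit, and Psme4 was not called in either maternal group. Each window runs from 250 bases before to 50 after the start in RefSeq on GRCm38.p6, printed 5′ to 3′ on the gene's strand. Psme1 is chr14:55578244-55578543 (plus strand), Psme2 chr14:55591052-55591351 (minus strand, 1 of 2 windows of this gene), Psmb5 chr14:54617946-54618245 (minus strand) and Psme4 chr11:30771525-30771824 (plus strand). In GENCODE M21 the Psme1 gene begins further upstream, at chr14:55578123, so its whole window lies inside the annotated gene. Capitals mark matches to an interferon-response type motif (the core repeat of the interferon-stimulated response element, on the other strand in Psme1), to antioxidant-response type motifs bound by the Nfe2l1 and Nfe2l2 family (TGATNNNGC in Psme2; TGACNNNGC and TGANTCAGC in Psmb5; TGACNNNGC on the other strand in Psme4) and to an ETS-type motif (CGGAAG in Psme4).
Psme1: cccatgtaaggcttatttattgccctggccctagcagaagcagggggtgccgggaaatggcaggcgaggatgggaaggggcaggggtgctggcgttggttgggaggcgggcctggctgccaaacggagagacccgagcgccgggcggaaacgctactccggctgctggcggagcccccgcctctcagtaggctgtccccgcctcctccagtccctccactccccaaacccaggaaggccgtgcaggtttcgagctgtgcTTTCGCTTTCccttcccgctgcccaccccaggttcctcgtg
Psme2: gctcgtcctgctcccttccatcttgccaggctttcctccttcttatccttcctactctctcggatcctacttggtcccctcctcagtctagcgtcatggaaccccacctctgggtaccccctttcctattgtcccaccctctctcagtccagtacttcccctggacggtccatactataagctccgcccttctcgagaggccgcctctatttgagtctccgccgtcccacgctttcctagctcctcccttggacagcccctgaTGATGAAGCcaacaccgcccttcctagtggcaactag
Psmb5: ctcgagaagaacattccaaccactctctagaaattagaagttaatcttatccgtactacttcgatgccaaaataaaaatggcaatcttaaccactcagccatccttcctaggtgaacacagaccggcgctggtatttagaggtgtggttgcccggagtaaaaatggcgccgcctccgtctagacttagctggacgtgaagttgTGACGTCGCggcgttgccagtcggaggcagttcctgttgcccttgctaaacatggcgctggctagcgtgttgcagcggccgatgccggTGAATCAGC
Psme4: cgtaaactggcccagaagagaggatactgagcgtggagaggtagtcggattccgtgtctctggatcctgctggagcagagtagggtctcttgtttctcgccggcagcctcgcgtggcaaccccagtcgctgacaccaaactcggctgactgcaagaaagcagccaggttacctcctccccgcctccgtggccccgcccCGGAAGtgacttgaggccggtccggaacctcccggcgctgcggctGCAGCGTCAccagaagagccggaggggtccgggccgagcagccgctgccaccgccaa

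Promoter windows were at hand for 35 of the 42 members, and 14 motifs were counted on both strands, chosen with their counts in view. The ETS-type motif CGGAAG was in 20 of 35 member windows (57.1%). Of all 27025 genes with a window 18.8% had it, and of the 9840 tested genes with one 35.7%. The longer GGAAGTGA, which shares the letters GGAAG, was in 2 members (5.71%, against 3.91% and 5.92%). Shares below those of the tested genes included CCAAT (37.1%, against 43.0%) and GGGCGG (60.0%, against 66.8%). So did TTCNNNGAA (2.86%, against 8.52%) and TGATNNNGC, found in Psme2 alone (2.86%, against 8.32%). TGACNNNGC was in 6 members, Psmb5, Psmb6, Psmc6, Psmd12, Psmd9 and Psme4 (17.1%, against 14.0% of all genes), a share near the background. The interferon-response type motif was in 4, Psmb3, Psmd4, Psmd9 and Psme1 (11.4%, against 3.99% and 3.85%). Psme4, which was not called, holds both CGGAAG and TGACNNNGC. Counted from the RefSeq start, the marked matches begin at base 10 in Psme1, 14 in Psme2 and 42 (TGANTCAGC) in Psmb5. These lie after that start. Before the RefSeq start lie those at -47 (TGACNNNGC) in Psmb5 and at -7 (TGACNNNGC) and -52 (CGGAAG) in Psme4. Starts in other annotations can differ. These are letter matches in a fixed window, given as a description without a test.

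The related genes of the pathway, 35 listed and 34 tested, were more mixed than the members. In control offspring 16 of 34 were higher and 3 lower, where 23.3% and 21.3% of all genes were. MIA offspring had 15 of 34 higher and 3 lower, beside 20.8% and 18.3% of all genes. Both further subunits of the cap rose: the ubiquitin receptor Adrm1 by 0.71 ± 0.12 and 0.92 ± 0.14, and Sem1 by 0.56 ± 0.17 and 0.50 ± 0.20. Of the 4 regulators of proteasome gene transcription 3 rose in each group. Nfe2l1 rose by 0.72 ± 0.13 and 0.74 ± 0.16 (edgeR, adjusted p = 8.18e-05 and 0.000496), its activating protease Ddi2 by 0.72 ± 0.11 and 0.62 ± 0.13, and the antioxidant factor Nfe2l2 by 1.10 ± 0.13 and 1.11 ± 0.15. Ngly1, the glycanase that also processes Nfe2l1, had 0.22 ± 0.14 and 0.06 ± 0.17 and was not called.

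Assembly factors were mixed. Among 6 tested assembly factors 2 rose in control and 0 in MIA offspring (edgeR; in MIA offspring 3 had an unadjusted p under 0.05, of which Akirin2 was lower). The core chaperone genes Psmg2 and Psmg4 were the 2 that rose in control offspring, by 0.53 ± 0.15 and 0.90 ± 0.31 (edgeR, adjusted p = 0.00599 and 0.0204), and had 0.15 ± 0.18 and 0.77 ± 0.37 in MIA offspring. Psmg1 had 0.30 ± 0.21 and 0.59 ± 0.25 and Psmg3 0.69 ± 0.29 and 0.31 ± 0.35 in control and MIA offspring, without a call. Pomp, the maturation factor that each new core needs and consumes, had 0.10 ± 0.12 and 0.10 ± 0.14 (edgeR, adjusted p = 0.512 and 0.617). Akirin2, which brings proteasomes into the nucleus, fell to 0.383 and 0.407 of its saline level, from 18.5 to 22.0 CPM in control saline libraries to 9.80, 5.83, 5.92, 9.18 and 8.41 CPM in control LPS libraries. The shuttle gene Ubqln2 fell by 0.85 ± 0.13 and by 0.61 ± 0.16. Rps27a, a ubiquitin fusion gene, rose by 0.88 ± 0.14 and 0.93 ± 0.17.

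Next to the constitutive genes, the immunoproteasome subunits responded unequally. Psmb10 rose by 0.94 ± 0.16 and 1.21 ± 0.19 and Psmb8 by 0.54 ± 0.15 and 0.54 ± 0.17 (edgeR, adjusted p = 0.00379 and 0.0164), while Psmb9 had 0.01 ± 0.15 and 0.07 ± 0.19 (adjusted p = 0.974 and 0.807). The ratio of each to the subunit it replaces was then compared inside libraries, where scaling cancels, with an exact two-sided permutation test over libraries and Benjamini-Hochberg adjustment over 8 tests. For Psmb8 over Psmb5 the log2 count ratio was 1.29 ± 0.16 (SD, n = 6) in control saline and 0.91, 0.92, 0.93, 0.94 and 0.68 in control LPS libraries. No library overlapped, and the mean fell by 0.41 (exact permutation p = 0.00433, the smallest these groups allow; adjusted p = 0.0173).

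The ratio of Psmb9 to Psmb6 was -1.41 to -0.82 in control saline and -1.91, -1.83, -1.49, -1.89 and -1.36 in control LPS libraries, lower by 0.66 in the mean (exact permutation p = 0.00866, adjusted p = 0.0231). It missed the threshold, with an adjusted p of 0.0508, when any of control LPS replicates 1 to 4 was left out (exact permutation test). The change itself stayed at -0.74 to -0.61 when 1 library was left out. With fewer libraries the exact test also has fewer divisions and coarser p-values. Psmb10 over Psmb7 went the other way, by 0.22, with overlapping groups (exact permutation p = 0.178, adjusted p = 0.237; 0.31 and adjusted p = 0.0317 without control saline replicate 5). So in control offspring Psmb8 lost ground to Psmb5, and Psmb9 to Psmb6 with a call that was lost in the smaller sets of libraries named above. No loss was seen for Psmb10 against Psmb7. In the fit, Psmb5 and Psmb6 rose more than Psmb8 and Psmb9.

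Of the 2 PA28 types, the interferon-inducible one gained. The log2 ratio of Psme1 to Psme3 was 1.14 to 1.83 in control saline and 2.39, 2.37, 2.40, 1.88 and 2.26 in control LPS libraries, higher by 0.76 with no overlap (exact permutation p = 0.00433, adjusted p = 0.0173). In MIA offspring the 4 ratios changed by -0.21, -0.82, 0.29 and 0.68 in the same order of genes. None passed (exact permutation tests, adjusted p = 0.245, 0.143, 0.429 and 0.229), in a design of 5 against 3 whose smallest p is 0.0357, and the Psmb10 to Psmb7 ratio changed sign without MIA LPS replicate 1 (-0.05).

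**Figure D4:**
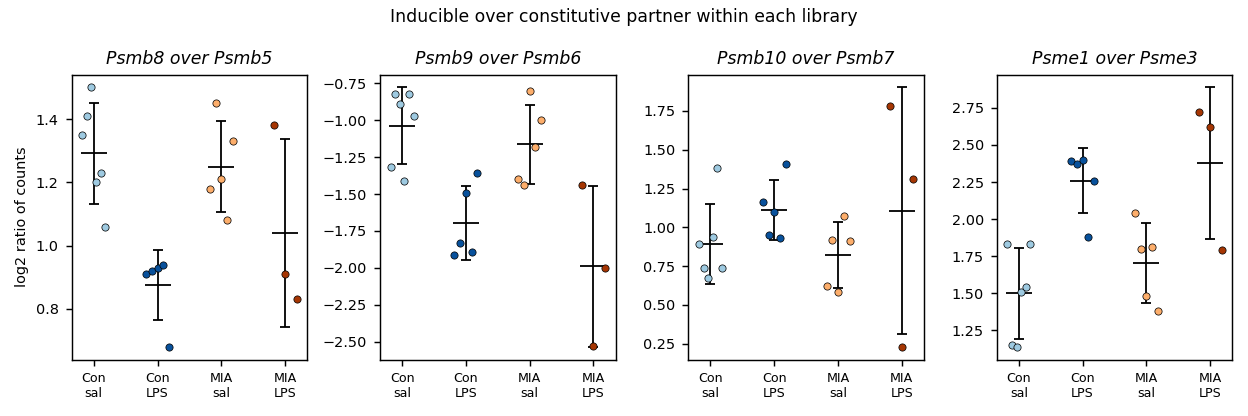
Log2 ratio of counts inside each library for 3 immunoproteasome subunits over the constitutive subunit each replaces and for Psme1 over Psme3 (y axes do not start at 0; points are libraries, long bars means, short bars SD). In control offspring the LPS points of Psmb8 over Psmb5 lie below all saline points and those of Psme1 over Psme3 above them.

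Maternal immune activation was compared at each treatment, and the difference of the LPS responses was tested itself. No member passed in any of these 3 comparisons, and no gene of the 14741 did (edgeR, 0.0% called in each). At an unadjusted p under 0.05, edgeR gave 1 of 42 members for the difference of responses (Psmd4), 0 after saline and 1 after LPS (Psmb2). Over all genes edgeR gave 491, 415 and 825, or 3.3%, 2.8% and 5.6%. DESeq2 gave 2, 1 and 2 members, beside 3.7%, 3.3% and 6.1% of all genes. With limma-voom 5, 1 and 1 members were found, beside 2.7%, 5.8% and 3.3% of all genes. After adjustment DESeq2 called 6 genes after saline, none of them a member. The median of the 42 members was 0.09 for the difference of responses, -0.01 after saline and 0.07 after LPS. Values above 0 numbered 30, 21 and 33 of 42, beside 7694, 7086 and 7419 of the 14741 genes. Members share libraries, and this lean was not tested. After LPS 2 members had every MIA library above every control library (1.28% of all genes did), and 0 after saline (0.176% of all genes).

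Psmd4 had the smallest p for the difference of responses, with 0.55 ± 0.26 (edgeR, adjusted p = 1.00). Its levels were 18.5 ± 5.74 (SD, n = 6) and 15.0 ± 1.84 CPM (n = 5) in control and MIA saline and 27.4 ± 1.53 (n = 5) and 32.2 ± 7.73 (n = 3) in control and MIA LPS, with the maternal groups overlapping at both treatments. Psmd8, a lid subunit, was next with 0.39 ± 0.19 (edgeR, adjusted p = 1.00). After LPS, Psmb2 was at 64.8, 50.3, 65.3, 69.2 and 50.7 CPM in control and at 74.3, 69.4 and 78.2 CPM in MIA offspring, apart by a small margin and by 0.30 ± 0.14 (edgeR, adjusted p = 0.881). After saline, the smallest p belonged to Psma8 (-0.69 ± 0.33, adjusted p = 1.00) and Psmd12 (-0.29 ± 0.14, adjusted p = 1.00; edgeR), neither of them apart.

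For the genes with the largest LPS response the MIA against control values were close to 0 at both treatments. Psme1 had -0.02 ± 0.16 after saline and 0.07 ± 0.19 after LPS, Psme2 -0.02 ± 0.14 and 0.04 ± 0.17, and Psmd14 0.04 ± 0.13 and 0.16 ± 0.15. The SE of the difference of responses ran from 0.16 to 0.56 over the members, with a median of 0.22, and values as large as that of Psmd4 did not pass the threshold.

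**Figure D5:**
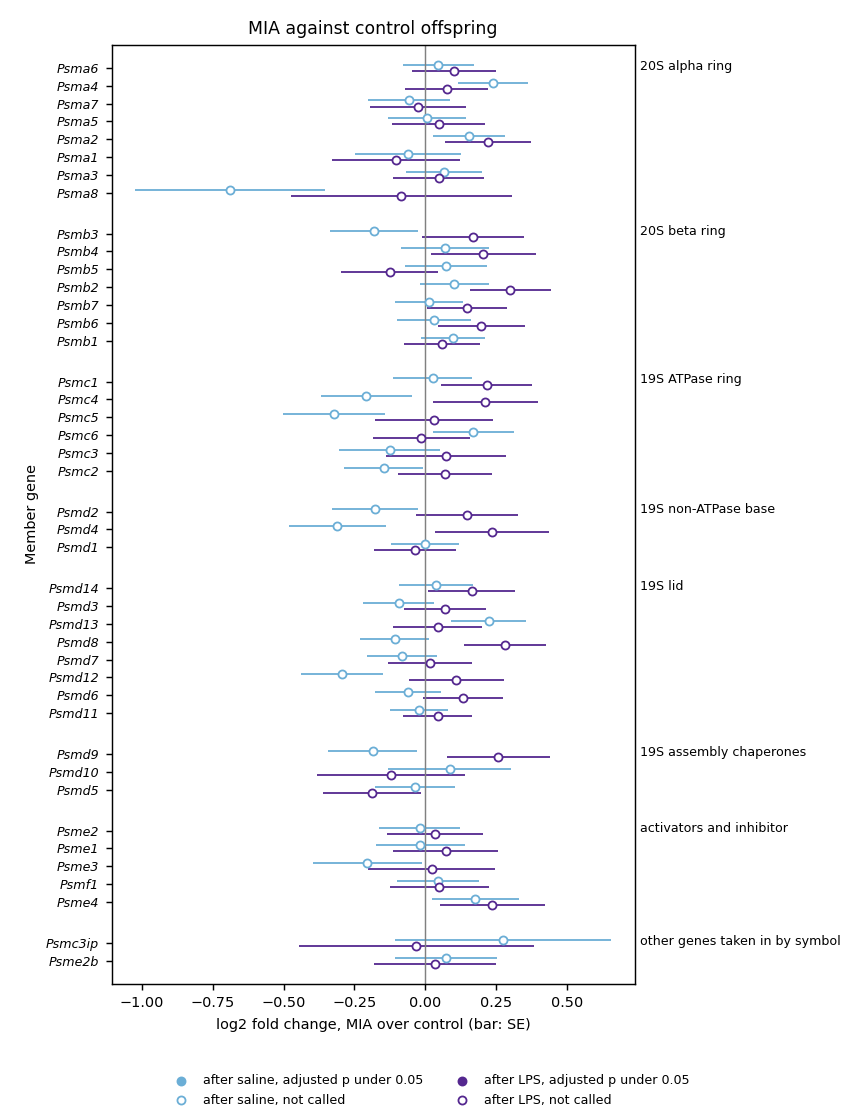
Fitted log2 fold change of each member for MIA over control offspring (x axis; bars are SE), by role, after saline (light blue; 6 control and 5 MIA libraries) and after LPS (purple; 5 and 3). All points are open, since 0 members passed the test. Of the 42 points 21 lie above 0 after saline (median -0.01) and 33 after LPS (median 0.07).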

How the data were processed

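The authors deposited 1 table of estimated counts by gene without normalization; the submitters' processing notes name STAR, RSEM and DESeq2 without versions, and the sources used here do not give the genome build, annotation or use of strand. Libraries were made from 5 ng of RNA by an oligo-dT method with 9 PCR cycles, per the labels' protocols. Of the members' values 19.73% were not whole, and all were rounded. Symbols came from GENCODE M21 by identifier without version (55227 of 55487 matched). All 20 libraries not titled excluded were fitted together in edgeR 4.0.16 (R 4.3.3; quasi-likelihood, robust, TMM; minimum count 10, minimum total 15) with a mean for each of the 4 groups and a batch term, which left 15 residual degrees of freedom, and p-values were adjusted over all 14741 genes tested. The SE is the absolute log2 fold change over the square root of F. Ratios used counts plus 0.5 in batch 1. Alternatives were other scalings, DESeq2 1.42.0, limma 3.58.1 (voom), filters, blocks and leaving out each library. The fit was tested on simulated data. The members, lists and comparisons were chosen with earlier results of these data known. Named with values were the catalytic, activator and inhibitor genes, the highest and lowest member of each role, the 5 smallest p-values of each LPS comparison and the 2 smallest of each MIA comparison; Psma1, Psma3, Psmc3 and Psmd10 were added after their values were seen. Some listed related and marker genes are not reported here.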

Additional observations from a re-analysis of the deposited data

Results flagged for a closer look

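Levels of the 27 members named by rule were screened in each group of 5 or 6 libraries for a library far from the rest (Dixon's criterion at 95%), which chance alone meets in about 1 of 20 groups; 4 of 81 gene and group pairs met it, and all 4 were MIA saline libraries. Psmd12, a lid subunit, was at 20.2 CPM in MIA saline replicate 1, where the others ran from 13.1 to 14.5. Psmd2, the base scaffold, was at 16.7 CPM in MIA saline replicate 3, below the other libraries at 22.0 to 23.9. In the same library the germ-cell alpha subunit Psma8 was at 1.28 CPM, against 1.93 to 2.13 in the others, and 5 of the 42 members exceeded their control saline mean there. Psmc3ip was at 1.21 CPM in MIA saline replicate 2, where the others had 0.757 to 0.878.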

How the results depend on the processing

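The members called higher after LPS numbered 33 to 37 in control and 30 to 36 in MIA offspring over all alternatives, 0 were called lower, and 0 members passed in the MIA comparisons. The all-gene median moved by at most 0.09 under other scalings. Among ratios in control offspring, Psmb9 over Psmb6 ranged from -0.74 to -0.61 and Psmb10 over Psmb7 from 0.14 to 0.31 when 1 library was left out; in MIA offspring Psmb10 over Psmb7 ranged from -0.05 to 0.72. For Psme4 after LPS in MIA offspring the sign turned with RLE (-0.01) or upper quartile scaling (-0.03), DESeq2 (-0.01), limma-voom with sample weights (-0.13), no batch term (-0.26), the replicate block (-0.04) and without MIA LPS replicate 2 (-0.21) or MIA saline replicate 5 (-0.02), and leaving out 1 library gave -0.21 to 0.19. In control offspring it turned with the ID number as a random block (0.02) and without control saline replicate 2 (0.03), 3 (0.06) or 4 (0.04) or control LPS replicate 5 (0.07), with a range of -0.11 to 0.07 when 1 library was left out. Psme2b in MIA offspring was -0.01 with no batch term and -0.01 without MIA LPS replicate 2 (-0.01 to 0.52 over the libraries left out), and Psmd5 in control offspring 0.02 without control saline replicate 4 (-0.09 to 0.02). None of these values was called, and the cause was not tested. Without the batch term Psmf1 passed in MIA offspring (0.80), and the members' MIA median was 0.99.

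The labels do not say that replicate numbers pair libraries, and correlations this small cannot settle whether they do. Deviations of same-numbered libraries had a median correlation of 0.03 (24 pairs, -0.14 to 0.22) and other pairs -0.01 (109 pairs). Of 19 libraries, 7 correlated best with one of their own number. Libraries with the same ID number had a median correlation of 0.04 (10 pairs), and the consensus correlation by ID number was 0.084. With the replicate number as a block, 36 members were called higher in control and 33 in MIA offspring, with medians of 0.71 and 0.86. With 3 to 6 libraries a group, and 1 of them in a batch of its own, the number of libraries limits what the MIA comparisons can show.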

Other observations

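The library of batch 2, MIA LPS replicate 4, entered no comparison. Its summed level of the 42 members was 2907 CPM, above the 1952 to 2304 CPM of the other MIA LPS libraries. In it 39 members lay above every MIA saline library, 12 were inside the range of the other MIA LPS libraries, 27 above it and 3 below. Among those above all others were Psmd3, at 133 CPM against 25.01 to 26.8, Psmd2, at 135 against 28.3 to 62.4, and Psmc1, at 121 against 41.6 to 54.4. Psme2 was at 163 CPM, against 89.0 to 119. Psme4 went the other way, with 9.00 CPM against 36.7 to 61.1.

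The library titled excluded, MIA saline replicate 6, had the lowest total of the series (5.29 M counts). Its summed member level of 1216 CPM was inside the 991 to 1362 CPM of the other MIA saline libraries, with 28 members inside their range, 8 above and 6 below. Psmd14 was at 29.3 CPM, above the others at 18.7 to 24.7.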
